A study of Mus musculus with 2 samples.

Results

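The small heat shock genes of the mouse are described here by the regions around them in which a Uhrf1 conditional knockout (cKO) library carried less captured methylated DNA than a Control library. The genes were Hspb1, Hspb2, Hspb3, Hspb6, Hspb7, Hspb8, Hspb9, Hspb11, Cryaa and Cryab, and a region was assigned to a gene when it overlapped the gene's RefSeq span widened by 20 kb on each side. By this rule 16 of the 35861 deposited regions were found, around 6 of the 10 genes. Uhrf1 binds DNA methylated on a single strand after replication and brings in Dnmt1, which restores the methyl group on the new strand, and Hspb1 is the gene that the study links to Uhrf1 in chondrocytes.

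Both libraries came from primary chondrocytes of C57BL/6 mice, isolated from knee cartilage at postnatal day 3 and treated with 100 ng/ml of recombinant human BMP-2 for 24 hours, and they differed by genotype, Uhrf1 cKO or Control. Methylated DNA, sheared to about 300 bp, was captured with the MBD2 protein and sequenced. There was 1 library per genotype, so no value has a replicate check and no p-value for a genotype difference was computed. The sources used here do not give the Cre driver, the number of animals behind each library or the alleles that Control cells carry. After duplicate removal 15039206 tags were kept for Uhrf1 cKO (76.1%) and 9782276 for Control (44.8%), and the part of this difference in any region was not tested. Uhrf1 itself (chromosome 17, 56303337 to 56323486) held 5 regions with folds of 7.32 to 24.59, which does not check the loss of the gene. RNA was not measured, so neither the expression of the genes below nor the cell type could be checked from these data.

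Small heat shock proteins are ATP-independent chaperones that hold unfolding proteins in a soluble state until the ATP-dependent Hsp70 system can refold them or hand them on for degradation. They share the alpha-crystallin domain, named after the lens proteins encoded by Cryaa and Cryab, and most assemble into oligomers. Heat shock factors induce part of the family under stress. Hspb1, also called Hsp25 in the mouse, additionally binds the actin cytoskeleton and is phosphorylated downstream of the p38 kinase. Hspb11, also called Ift25, is a subunit of intraflagellar transport in cilia and belongs to the group by name and not by the domain.

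The 250 bases upstream of 4 gene starts are shown because MBD2 capture depends on CpG sites. Hspb1 had the region nearest to its start, Hspb9 the next nearest, Hspb8 had regions only past its 3′ end and Cryaa had none within 20 kb. The sequences are from RefSeq (GRCm38.p6), 5′ to 3′ in the direction of transcription, with CpG sites in capitals. The windows are chr5:135887669-135887918 (plus strand) for Hspb1, chr11:100713679-100713928 (plus strand) for Hspb9, chr5:116422865-116423114 (minus strand) for Hspb8 and chr17:31677681-31677930 (plus strand) for Cryaa.
Hspb1: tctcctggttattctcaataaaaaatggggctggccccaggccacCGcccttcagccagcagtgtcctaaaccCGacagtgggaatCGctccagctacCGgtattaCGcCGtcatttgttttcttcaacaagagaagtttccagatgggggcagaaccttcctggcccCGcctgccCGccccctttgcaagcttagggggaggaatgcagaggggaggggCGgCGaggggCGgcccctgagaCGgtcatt
Hspb9: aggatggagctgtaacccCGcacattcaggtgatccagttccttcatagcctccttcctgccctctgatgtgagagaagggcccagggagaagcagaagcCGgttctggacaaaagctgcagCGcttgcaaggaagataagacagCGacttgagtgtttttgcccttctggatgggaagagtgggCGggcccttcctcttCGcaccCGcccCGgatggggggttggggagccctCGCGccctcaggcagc
Hspb8: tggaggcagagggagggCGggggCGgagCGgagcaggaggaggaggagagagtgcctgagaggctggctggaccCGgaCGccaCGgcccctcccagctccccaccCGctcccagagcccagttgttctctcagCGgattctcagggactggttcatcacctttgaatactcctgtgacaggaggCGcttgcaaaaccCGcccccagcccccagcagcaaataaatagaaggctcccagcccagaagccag
Cryaa: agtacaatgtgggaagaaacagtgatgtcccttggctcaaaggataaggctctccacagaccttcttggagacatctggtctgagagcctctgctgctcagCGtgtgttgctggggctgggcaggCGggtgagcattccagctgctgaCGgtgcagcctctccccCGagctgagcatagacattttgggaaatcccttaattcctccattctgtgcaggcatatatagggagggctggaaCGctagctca
The Hspb1 window held 12 CpG sites, against 10 each in Hspb9 and Hspb8 and 5 in Cryaa. The median over all 21263 such windows of protein-coding genes was 10 (interquartile range 3 to 19), so all 4 windows lay between the quartiles. A region reached into only 1 of the 9 windows of the 8 members with a given start, that of Hspb1, and 167 of the 21263 windows (0.785%) overlapped a region. The overlap covered the 13 bases farthest from the Hspb1 start and held 0 CpG sites. All 12 printed CpG sites of Hspb1 therefore lay between the listed edge of the region and the gene. Captured fragments, of about 300 bp, can run past that edge, so the list cannot tell whether they held these sites. Windows that overlapped a region had a median of 7 CpG sites (4 to 12). No window was given for Hspb2 and Cryab.

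The core of the heat shock element, the site of the heat shock factors, was searched as GAANNTTC and as TTCNNGAA, each of which reads the same on both strands. The Hspb1 window held GAANNTTC at 2 places, gaagtttc beginning 117 bp and gaaccttc beginning 97 bp upstream of the start, and no TTCNNGAA. At least 1 GAANNTTC was present in 6.17% of all windows and 2 or more in 0.15%, whereas TTCNNGAA was present in 6.48%. A longer pattern, with more alternating units than these cores, was also searched. It matched no window of the members, that of Hspb1 included, and 0.386% of all windows. Among the other members, single GAANNTTC matches lay in the window of Hspb3 and upstream of the second of the starts given for Hspb6. The windows of Hspb7, Hspb8, Hspb9, Hspb11 and Cryaa, and that of the first Hspb6 start, held neither core. Both Hspb1 matches lay outside the listed region, closer to the gene, although captured fragments can run past its edge. A match is a string of letters and not a measured binding site.

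Hspb1 (chromosome 5, 135887919 to 135889563, mm10) is a compact gene of 1.65 kb, and all 3 regions within 20 kb of it lay on its upstream side. The region nearest to it, at 135886951 to 135887681, extended from 238 to 968 bp upstream of the start, with its summit 689 bp upstream. It held 187 Control tags (95% exact Poisson interval 161 to 216) at a fold of 10.06 and an FDR of 0.05%. The authors' fold is the Control signal at the summit divided by the background expected from the cKO library, so a value above 1 means less signal in cKO after scaling, and the FDR compares listed regions with those found after the libraries are swapped. At 731 bp it was the longest of the 16 regions, and 77.7% of all listed regions had fewer tags, yet only 35.9% had a smaller fold. Its length exceeded that of 96.2% of listed regions. The density was 25.6 tags per 100 bp, against a median of 21.5 over the list. Listed regions with an FDR of at most 5% had a median of 29.8. The region by the Hspb1 start thus held many tags over a long stretch, with a fold somewhat under the list's median of 12.2.

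The next Hspb1 region, at 135885429 to 135885890, lay 2029 to 2490 bp upstream of the start and 1060 bp from the nearer region. It held 70 Control tags (54.6 to 88.4) at 11.08-fold, and its FDR of 6.84% was above 5%. The third, at 135873943 to 135874288, lay 13.6 kb upstream inside the neighbouring gene Srrm3, which encodes a regulator of splicing, and carried 37 tags (26.1 to 51) at 36.69-fold with an FDR of 3.73%. Tag count and fold ran in opposite order over these 3 regions. On the other side, 4 regions between 20.7 and 39.3 kb from Hspb1 all lay within Ywhag, which encodes the 14-3-3 gamma adaptor, and were outside the 20 kb limit.

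**Figure D1:**
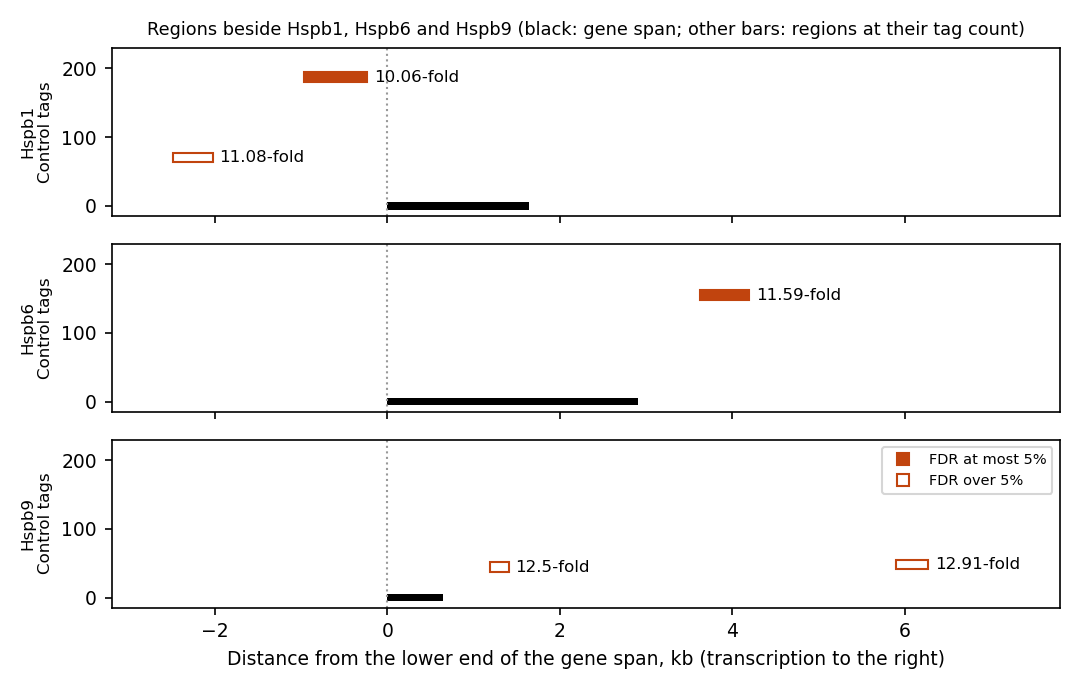
Regions close to Hspb1, Hspb6 and Hspb9, drawn by distance in kb from the lower end of each gene span (x axis) and by Control tags (y axis). Black bars at 0 are gene spans, filled bars are regions with an FDR of at most 5% and open bars those above it, and the label is the authors' fold of Control over cKO. Within the distances drawn, the Hspb1 regions lie before the start and those of Hspb6 and Hspb9 past the 3′ end, whereas regions farther away are left out.

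Hspb6 and Hspb7 encode small heat shock proteins best known from muscle, Hsp20 and the cardiovascular cvHsp. Hspb6 (chromosome 7, 30552535 to 30555443) had 3 regions within 20 kb, all with an FDR of at most 0.07%. The region 724 bp past its 3′ end, at 30556167 to 30556728, held 155 Control tags (132 to 181) at 11.59-fold and lay within Lin37, a subunit of the cell cycle regulator DREAM. The region 12000 bp downstream, within Igflr1, held 189 tags at 16.01-fold, and the region 13.6 kb upstream held 150 tags at 8.73-fold and lay 149 bp from Proser3. All 3 were thus in or next to other genes of a crowded locus, which had 7 other protein-coding genes within 20 kb of Hspb6.

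Hspb7 (chromosome 4, 141420779 to 141425310) had 4 regions, more than any other member, but 3 of them were thin. Those 3 held 26, 30 and 26 Control tags at 15.05-fold, 15.48-fold and 9.51-fold, at gaps of 19.7 kb and 17.4 kb upstream and 6.71 kb downstream, and the authors' FDR was 100% for each. The fourth, at 141439444 to 141439863 and 14.1 kb downstream, held 149 tags (126 to 175) at 41.75-fold with an FDR of 0%. It had the largest fold among the 16 regions, and 96.5% of listed regions had a smaller fold. Its nearest protein-coding gene was Srarp, 3339 bp away.

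Hspb8, Hspb3 and Hspb9 had regions mainly or only past their 3′ ends. Hspb8 (chromosome 5, 116408491 to 116422864) encodes a partner of the co-chaperone Bag3 in the autophagic removal of damaged proteins. Its 2 regions lay 4888 bp and 19961 bp downstream, with 173 Control tags (148 to 201) at 7.77-fold and an FDR of 0.02%, and with 73 tags (57.2 to 91.8) at 9.67-fold and an FDR of 21.78%. The nearer region had the lowest fold of the 16, with more tags than 74.3% of the list. The part of the p limit for listing in this order of depth and fold was not tested. No other protein-coding gene was nearer to either Hspb8 region.

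Hspb3 (chromosome 13, 113662896 to 113663676), a gene of muscle and nerve, stands alone, with no other protein-coding gene within 20 kb. Its only region, at 113649329 to 113649771, lay 13.1 kb downstream and held 38 Control tags (26.9 to 52.2) at 30.53-fold with an FDR of 6.37%. A denser region at 21.7 kb downstream, with 224 tags at 16.33-fold and an FDR of 0%, fell just outside the limit. Hspb9 (chromosome 11, 100713929 to 100714575) is expressed mainly in the testis and is the shortest member at 0.647 kb. Its nearest region, 541 bp past the 3′ end at 100715116 to 100715334, held 44 tags (32 to 59.1) at 12.5-fold with an FDR of 51.42%, and the next, 5.25 kb downstream, held 48 tags at 12.91-fold with an FDR of 42.72%. Both lay within Rab5c, which encodes an endosomal GTPase. The third, 16.6 kb upstream within Dhx58, a regulator of the RNA sensor RIG-I, was deeper, with 163 tags at 13.55-fold and an FDR of 0%.

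Hspb2, Hspb11, Cryaa and Cryab had no region within 20 kb. Hspb2, which binds the myotonic dystrophy kinase, lies within the annotated span of Cryab on chromosome 9, so the nearest regions were shared. The region on the higher side, within Alg9, was 29.4 kb from Hspb2 and 25.1 kb from Cryab, with 16 Control tags (9.15 to 26) at 29.66-fold and an FDR of 100%. The nearest regions with an FDR of at most 5% lay 37.1 kb from Hspb2 and 32.8 kb from Cryab, also within Alg9. Cryaa (chromosome 17, 31677931 to 31681730) had its nearest region 24.8 kb upstream within U2af1, which encodes a splicing factor, with 223 tags (195 to 254) at 31.37-fold and an FDR of 0%. Hspb11 had the longest span of the members at 30.9 kb, and its nearest region, 48.5 kb away within Yipf1, was more distant than that of any other member. The window before the Hspb11 start held 25 CpG sites, more than 86.2% of windows, but this window also overlaps another protein-coding gene, Lrrc42. A gene without a listed region can be unmethylated in both genotypes, equally methylated in both, more methylated in cKO, or less methylated in cKO without reaching the p limit of 1e-10, and these cannot be told apart from the list.

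**Figure D2:**
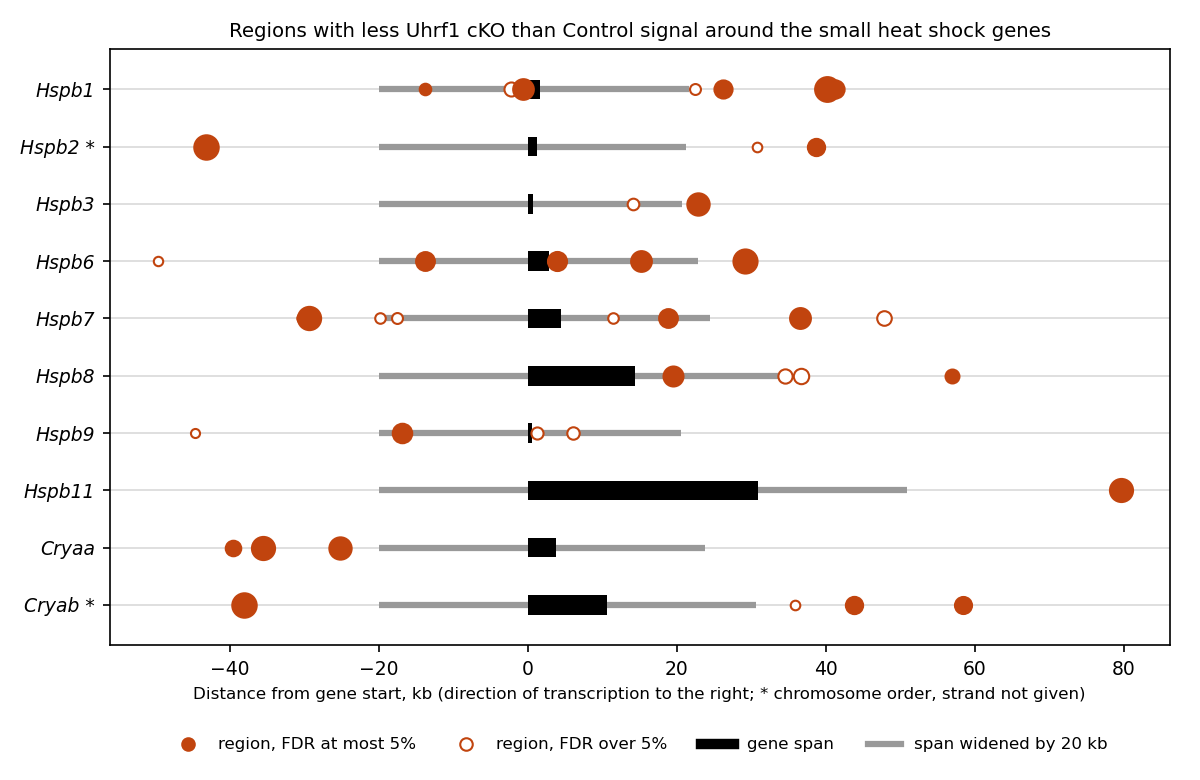
Regions within 50 kb of each of the 10 genes, by distance in kb from the gene start, with transcription to the right where the strand was given. Black bars are gene spans, grey bars the span widened by 20 kb, and circle area grows with Control tags. Circles are filled for an FDR of at most 5% and open above it. No circle falls within a gene span, and 4 genes have none on the grey bar.

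The 20 kb limit cut between regions close to each other in distance. Just inside it were the Hspb8 region at 19961 bp (73 Control tags, 9.67-fold) and the Hspb7 region at 19716 bp (26 tags, 15.05-fold). Just outside it were the Hspb1 region at 20721 bp (30 tags, 27.13-fold), the Hspb3 region at 21731 bp (224 tags, 16.33-fold) and the Hspb8 region at 22041 bp (90 tags, 8.88-fold).

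Across the 10 members, 6 (60%) had a region within 20 kb, against 65.4% of 21887 protein-coding genes. The members' share was thus near the background. Their spans were shorter, with a median of 3.35 kb against 17.2 kb, and among the 5034 protein-coding genes of at most 5 kb the share was 40.7%, whereas 5 of the 7 members of that size had a region. A count of 3 or more regions was found for 4 members and for 27% of all protein-coding genes. None of the 10 spans held a region, against 38.2% of all spans and 4.61% of spans of at most 5 kb. With an FDR of at most 5%, 5 of the 10 members had a region within 20 kb, against 50.9% of protein-coding genes.

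**Figure D3:**
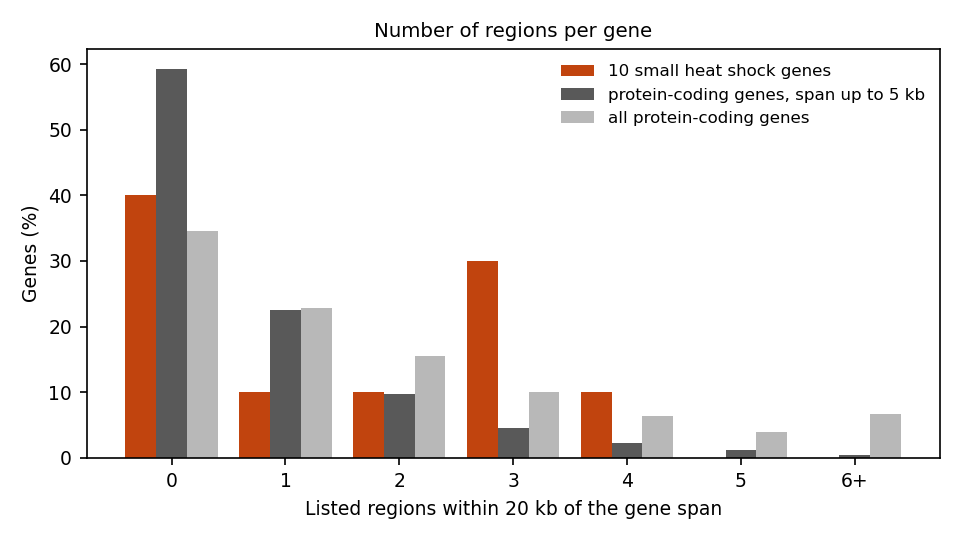
Share of genes (y axis, %) by the number of listed regions within 20 kb (x axis), for the 10 small heat shock genes, the 5034 protein-coding genes with a span of at most 5 kb and all 21887 protein-coding genes. The members fall mostly at 0 regions (4 genes) and at 3 regions (3 genes).

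Hspb1 was the only member with a region close to its start. Of the 8 members with a given start, 1 had a region within 1 kb of it, against 3.98% of 17492 protein-coding genes, and 2.61% of these genes had a region in the 1 kb upstream. The choice of Hspb1 by the study makes this a description and not independent evidence. By the distance from the gene span to its nearest region, Hspb1 (238 bp), Hspb9 (541 bp) and Hspb6 (724 bp) were followed by Hspb8 (4888 bp), Hspb7 (6706 bp) and Hspb3 (13125 bp). Of all protein-coding genes 38.6% had a nearer region than Hspb1, most of them inside the span, and of genes of at most 5 kb 5.09% did. The same share for Hspb9 was 5.76%, and for Hspb6 6.18%.

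All 10 members lay in parts of the genome with more regions than the median protein-coding gene, some of them only moderately so. In the 1 Mb centred on each member the number of regions was between 24 (Hspb2 and Cryab, which share their surroundings) and 65 (Hspb7), whereas the median over protein-coding genes was 18. Hspb1 had 52 regions in this window, and 3.04% of protein-coding genes had more. Hspb9 had 45, Hspb8 43, Hspb3 40, Cryaa 37, Hspb6 36 and Hspb11 25. More regions than Hspb11 were found for 32.3% of protein-coding genes, and more than Hspb2 and Cryab for 34.4%. Cryaa, with no region within 20 kb, thus lay in surroundings about as dense as those of Hspb6, which had 3. The part of this local density in the regions beside Hspb1 was not tested.

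As a set, the 16 regions had median fold and tag values between the quartiles of the list. Their folds ran from 7.77 to 41.75 with a median of 12.7, against 12.2 over the whole list (8.55 to 18.3 between quartiles). Their Control tags ran from 26 to 189 with a median of 71.5, against 103 over the list (59 to 175), and 7 of the 16 were above that median. The fold reached 10 in 12 of the 16, against 64.6% of all regions. The FDR was at most 5% for 8 of the 16, against 56.9% of all regions, and 100% for 3, against 16.2%. The 8 regions with an FDR of at most 5% held 1203 of the 1558 tags, with a median of 159 tags against 41 in the other 8. The median folds of these small groups, 12.6 and 12.7, were nearly equal. Over the whole list they differed, at 13.5 with an FDR of at most 5% and 9.28 above it.

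**Figure D4:**
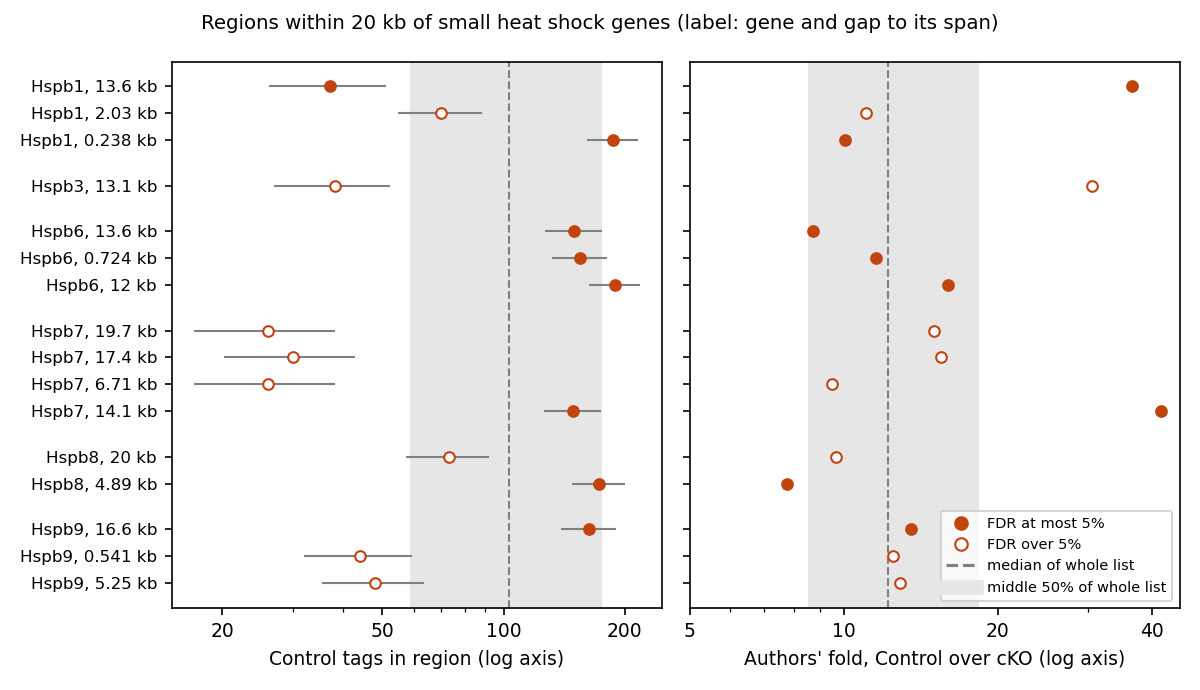
Control tags with exact 95% Poisson intervals (left, log axis) and the authors' fold of Control over cKO (right, log axis) for each of the 16 regions, labelled by gene and by the gap in kb to its span. Filled points have an FDR of at most 5%, the dashed line is the median of the whole list and the grey band its middle 50%. The deepest regions, 187 tags by Hspb1 and 189 by Hspb6, have folds inside the band.

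Most of the 16 regions were nearer to another protein-coding gene than to the small heat shock gene. The member was the nearest protein-coding gene for 5, namely the 2 nearer regions of Hspb1, both of Hspb8 and that of Hspb3. A further 6 overlapped another protein-coding gene. The same shares over all listed regions were not computed, so these counts describe the 16 regions and have no background. By side, 7 lay upstream and 9 downstream of the member, and over all pairs of a stranded protein-coding gene and a region in its flanks 49.7% were upstream. Within 20 kb, Hspb1 was the only member with all of several regions upstream, and both Hspb8 regions lay downstream. This depended on the limit. Within 50 kb Hspb1 had 7 regions, on both sides, whereas all 3 regions of Cryaa lay upstream. The share of all genes with regions on only 1 side was not computed. The libraries come from bulk cells, so a lower cKO signal in every cell and its loss from some cells cannot be told apart.

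The wider heat shock and chaperone genes were compared through a list of 67 genes, all matched to the gene table. Of these, 56 (83.6%) had a region within 20 kb, against 65.4% of protein-coding genes, 49 had one with an FDR of at most 5%, against 50.9%, and 29 held a region in the span, against 38.2%. Their median span was 12.9 kb, and neighbouring genes such as Hspa1a, Hspa1b and Hspa1l shared regions, so the 67 genes are not independent. The 4 heat shock factors Hsf1, Hsf2, Hsf4 and Hsf5, which drive transcription of heat shock genes, had none, and these were singled out after their values were seen. Hsf2bp, a partner of Hsf2 and of meiotic recombination, had a region at its start with 56 Control tags at 8.5-fold (FDR 51.38%).

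**Figure D5:**
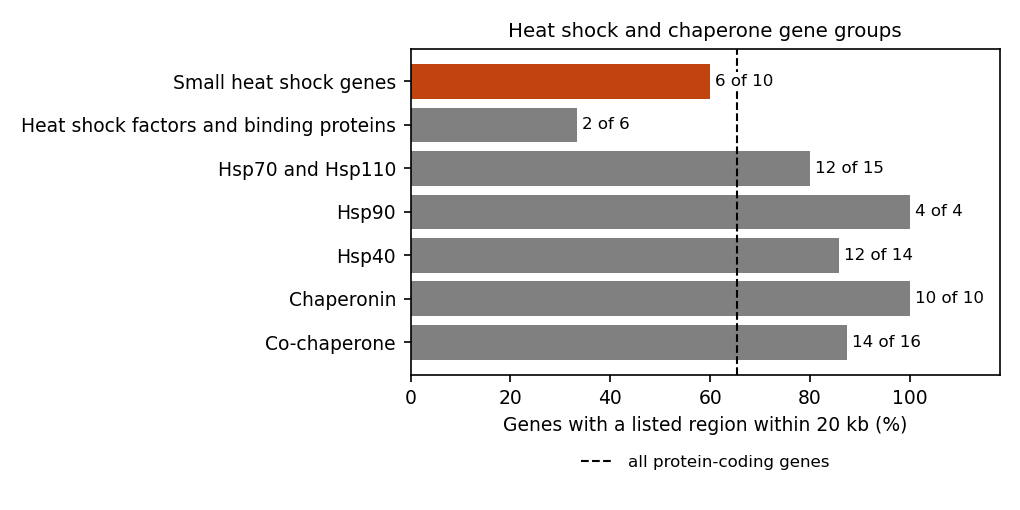
Share of genes with a listed region within 20 kb (x axis, %) in the small heat shock genes and in 6 groups of heat shock and chaperone genes, with the counts at the bars. The dashed line is the share over all protein-coding genes, 65.4%. The heat shock factor group, 2 of 6, lies lowest, and all 10 chaperonin genes have a region.

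By role, a region within 20 kb was found for 12 of 15 Hsp70 and Hsp110 genes, 4 of 4 Hsp90 genes, 12 of 14 Hsp40 genes, 10 of 10 chaperonin genes and 14 of 16 co-chaperone genes. Of the 54 genes with a given start, 4 had a region within 1 kb of it, against 3.98% of protein-coding genes. The stress-inducible Hsp70 gene Hspa1a and its neighbour Hspa1l shared the region at 34972966 to 34973333 of chromosome 17, with 72 Control tags at 13.47-fold and an FDR of 4.94%. The mitochondrial chaperonin gene Hspd1 had a region of 39 tags at 16.12-fold near a start, with an FDR of 35.34%. These regions had fewer tags than the 187 of the region by the Hspb1 start, but higher folds than its 10.06. The 8.5-fold Hsf2bp region had both fewer tags and a lower fold. The regions differ in length, and tags were not set against length for the chaperone genes.

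In the other roles, genes are named by the largest fold within 20 kb. Serpinh1, which encodes the collagen chaperone Hsp47, held a region of 47 Control tags at 52.73-fold within its span (FDR 0.06%). Among co-chaperones, the Hsp90 partner Cdc37 had 76 tags at 49.36-fold 11975 bp away, and Hspbap1, which encodes a protein that binds Hspb1, held 43 tags at 38.59-fold in its span. Bag3, the partner of Hspb8, had no region within 20 kb and is named after its value was seen. Among Hsp40 genes, Dnajc7 held 144 tags at 42.41-fold (FDR 0%) and Dnaja4 held 20 tags at 32.96-fold (FDR 55.89%). Among Hsp90 genes, Hsp90aa1 had 144 tags at 32.45-fold 12.7 kb away, and the mitochondrial Trap1 held 52 tags at 23.53-fold in its span. Odf1, a sperm tail protein counted as a further small heat shock protein, had 506 tags at 11.54-fold 19.8 kb away.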

How the data were processed

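Control and Uhrf1 cKO chondrocyte DNA captured with MBD2 was compared through the authors' single list of regions. Per the file headers, the authors ran MACS 1.4.2 on the Control library against the cKO library, which stood as its background, and listed regions at p of 1e-10 or lower, with at most 1 tag per position, the larger library scaled towards the smaller, a tag size of 55 bp and a modelled d of 58 bp, which is shorter than the fragments of about 300 bp. Per the submitters' processing notes the build was mm10. The aligner is not given in the sources used here. The deposited tag count is the number of Control tags per region, unscaled. The deposited score is the authors' p on a negative log10 scale multiplied by 10, the fold is the authors' ratio of Control signal to expected cKO background, and the deposited FDR is a percent value. Folds, scores and FDR values printed for regions are those of the authors' deposited table, and serve only for description, ranking and filtering within it. Tags of the cKO library per region were not analysed here.

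Gene spans (21887 protein-coding genes) are those of RefSeq on GRCm38.p6, and strand and starts from its promoter table, which gave a start for 17492 of them and for 8 of the 10 members. Exon, intron and UTR classes were not analysed here. Distances are in bp between the nearest edges. Backgrounds are the same counts over all protein-coding genes, and no set test was made. Poisson and Wilson intervals (95%) cover counting error only. Alternatives were other windows (gene span alone, 5, 10 and 50 kb), p limits of 1e-15 and 1e-20, an FDR of at most 5% and summits in place of overlap. The overlap counting was tested on simulated data. The members and lists were chosen with earlier results of these data known. Named were all members, genes beside or overlapping their regions, and in each chaperone role up to 3 genes with the largest fold within 1 kb of a start, or else up to 2 with the largest fold within 20 kb. Tools were SciPy 1.17.1, pandas 2.3.3 and NumPy 2.4.6 in Python 3.11.15, with plots from Matplotlib 3.10.9.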

Additional observations from a re-analysis of the deposited data

How the results depend on the processing

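Of 59 alternative values, 37 stayed close to the reported ones. Counts were called close within 1.5 times, and the background share and the median fold within their 95% intervals (64.7% to 66% and 9.67 to 16.01). The 6 members with a region within 20 kb became 5 at 10 kb and with an FDR of at most 5%, 4 at 5 kb, 10 at 50 kb, and 3 when only regions nearest to the member counted, an alternative added after the data were seen. The gene spans alone gave 0 members, 0 regions and 0 for Hspb1, and 29 of the 67 heat shock and chaperone genes against 56. The 16 regions became 5 at 5 kb, 7 at 10 kb, 38 at 50 kb and 8 with an FDR of at most 5%. Hspb1 kept 3 regions at p limits of 1e-15 and 1e-20 and had 7 at 50 kb. It had 2 at 5 kb, at 10 kb and with an FDR of at most 5%. The share of protein-coding genes, 65.4%, was 38.2% for spans alone, 47.4% at 5 kb, 54.7% at 10 kb, 80.2% at 50 kb, 60.7% and 56.7% at p limits of 1e-15 and 1e-20, 50.9% with an FDR of at most 5%, and 40.7% for genes of at most 5 kb, added after the data were seen. The 1 member with a region within 1 kb of its start became 2 at 2 kb, 3 at 5 kb and 3 with either end of the span. The median fold was 11.1 to 15.6 over the 5, 10 and 50 kb windows, both p limits, the FDR limit and the use of summits. No paired analysis was possible because there is 1 library per genotype and no replicate, so nothing could be left out, and depth limits each region through its tags (26 to 189 here).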
